A study of Mus musculus with 14 samples.

Results

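Isolated p53 sites listed on several rows were the subject of this description: genomic positions bound by p53 that the deposited site list repeats on 2 or more lines, and whose nearest other site on the same chromosome lies more than 10 kb away. The list held 4785 distinct sites, and 484 of them (10.1%) met both conditions. The sites came from primary mouse embryo fibroblasts (MEFs) of strain 129/Sv, assayed by chromatin immunoprecipitation and sequencing (ChIP-seq), in which DNA cross-linked to a protein is recovered with an antibody and sequenced. Of the 4 libraries in this assay, 2 were made with the p53 antibody CM-5, 1 from wild-type and 1 from p53-/- cells, and 2 were background libraries without an antibody, 1 from each genotype. All 4 groups had received 0.2 µg/ml doxorubicin, a drug that breaks DNA by trapping topoisomerase II, for 6 h, so no untreated cells stand beside these sites. Each group was 1 library and the list is 1 set of sites, so no value below has a replicate error, and differences between classes of sites are given as descriptions with no test.

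The transcription factor p53 is stabilised when DNA is damaged and binds as a tetramer to a response element made of a pair of similar decamers. From such elements, which lie in promoters, introns and distant enhancers, it raises genes of cell-cycle arrest, apoptosis and DNA repair. In fibroblasts the arrest arm is the best known, and p53-null fibroblasts serve as the usual control for antibody specificity. A ChIP-seq site marks where p53 was recovered on DNA and does not by itself say which gene, if any, responds.

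Each line of the list gave a chromosome, a position on the mouse build mm9, a fold enrichment, a score named as the negative log10 of a q value, and a rank. No gene, transcript or distance stood on a line, and the annotation at hand is on another build, so whether a site lies in a gene, an exon, an intron or a promoter is not given here, and no sequence is printed. The 5873 lines contained 1088 beyond the first line of each site. Lines of 1 site were identical in all 5 columns and always stood next to each other, so repeated lines added no second measurement. What the repetition stands for is not given in the sources used here. The 484 isolated sites on several rows took up 1131 lines and held 647 of the 1088 surplus ones (59.5%). They made up 62.0% of the 781 sites that were repeated anywhere in the list.

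Repetition was mostly by 1 extra line. Of the 484 sites, 373 (77.1%) stood on 2 rows, 74 (15.3%) on 3 rows, 25 (5.17%) on 4 rows, 9 on 5 rows and 3 on 6 rows. For comparison, 3207 isolated sites stood on 1 row, so 13.1% of the 3691 isolated sites were repeated. Among the 1094 sites with a neighbour within 10 kb, 27.1% were repeated. Over all 4785 distinct sites the share was 16.3%. The 22-row sites, the most repeated in the list, were not isolated: they were a pair on chromosome 18, at positions 37986130 and 37986357, only 227 bp apart.

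Binding at the isolated sites on several rows spanned nearly the whole range of the list at its lower end and left out its top. Fold enrichment ran from 3.05 to 188, with a median of 12.1 and quartiles of 6.72 and 23.5. Isolated sites on 1 row ran from 3.00 to 613, with a median of 15.9 and quartiles of 8.29 and 27.4. The medians differed by -3.87 (several rows minus 1 row), a ratio of 0.757. The choice of sites did not use the enrichment column, but whether the repetition of lines depends on enrichment is not known. All 484 sites lay inside the range of the isolated sites on 1 row.

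Weak sites made up a larger part of the class than of the isolated sites on 1 row. Enrichment was under 10 at 211 of the 484 sites on several rows (43.6%) and at 988 of the 3207 on 1 row (30.8%). Enrichment above 50 was found at 29 (5.99%) and 301 (9.39%). Among sites with a neighbour within 10 kb, the median was 13.3 on several rows and 15.5 on 1 row. A lower median was thus not particular to isolated sites. Enrichment was under 10 at 36.7% and 36.3% of these sites, so that share hardly differed between them. Above 50 it was found at 8.75% on several rows and 13.8% on 1 row, so fewer strong sites were not particular to isolated sites either. When the 3691 isolated sites were divided into 10 equal bins by enrichment, the 3 lowest bins, up to an enrichment of 9.29, held repeated sites at shares of 16.2%, 19.8% and 18.2%. The next 6 bins, from 9.30 to 46.4, stayed between 11.1% and 11.9%. In the highest bin, from 46.5 upward, the share was 8.40%, or 31 of 369 sites. The share was thus lower from the fourth bin on, and lowest in the highest bin.

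**Figure D1:**
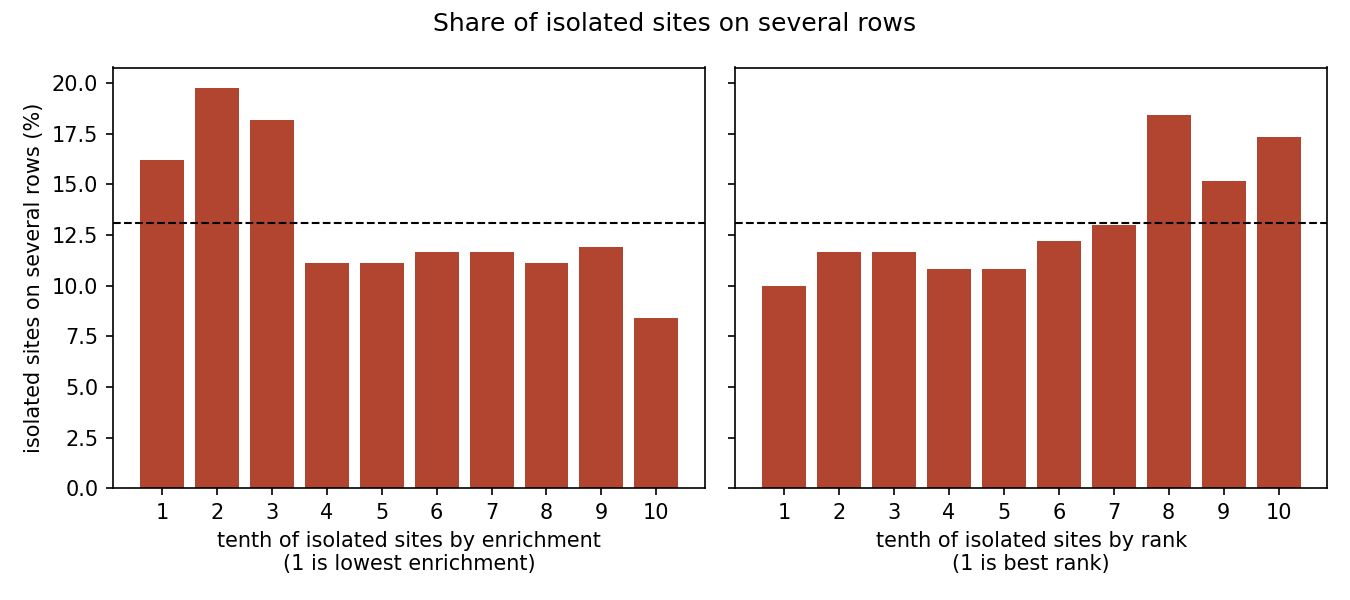
Percentage of isolated sites that stand on several rows (vertical axis) in 10 equal bins by enrichment (left, bin 1 lowest) and by rank (right, bin 1 best), with the value over all isolated sites, 13.1%, as a dashed line. The 3 lowest enrichment bins and the 3 last rank bins stand above the line, and the other bins stand below it.

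The authors' rank gave the same picture from another column. Ranks of the 484 sites ran from 61 to 4764 with a median of 2805.5, against a median of 2333 for isolated sites on 1 row, where 1 is best. In bins by rank, shares ran from 10.0% to 13.0% over the 7 best bins and from 15.2% to 18.4% over the 3 last ones. The rank follows the score column at all but 6 of 4784 steps, and its Spearman correlation with the enrichment across all sites was -0.808, so the rank and the enrichment are not separate evidence. The median score was 95.6 at isolated sites on several rows and 121.6 at those on 1 row. Sites with a neighbour within 10 kb had median ranks of 2554 on several rows and 2402 on 1 row. Within bins of enrichment the median ranks of the classes differed in either direction. They were closest in the lowest bin, at 4545 on several rows and 4548.5 on 1 row, and in the highest, at 393 and 371. The widest gaps were in the fourth bin, at 2802 and 2490, and the fifth, at 2543 and 2275.5. In the second bin the order was the opposite, at 3796 and 4025.

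The median was 12.6 on 2 rows (n = 373), 12.1 on 3 rows (n = 74) and 10.4 on 4 rows (n = 25). It was 7.78 on 5 rows (n = 9) and 8.499 on 6 rows (n = 3). The 12 sites on 5 or 6 rows together had a median of 7.99, and 8 of them lay between 7 and 10. That band held 15.7% of all isolated sites on several rows and 11.9% of those on 1 row. It was not planned and was set with the values of the 12 sites in view. A higher share among them is therefore partly built in, and no conclusion is drawn from it. With 12 and 25 sites in the last groups these medians rest on few sites, and their ranges, from 3.41 to 100.9 and from 3.05 to 77.2, overlap those of the other groups.

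**Figure D2:**
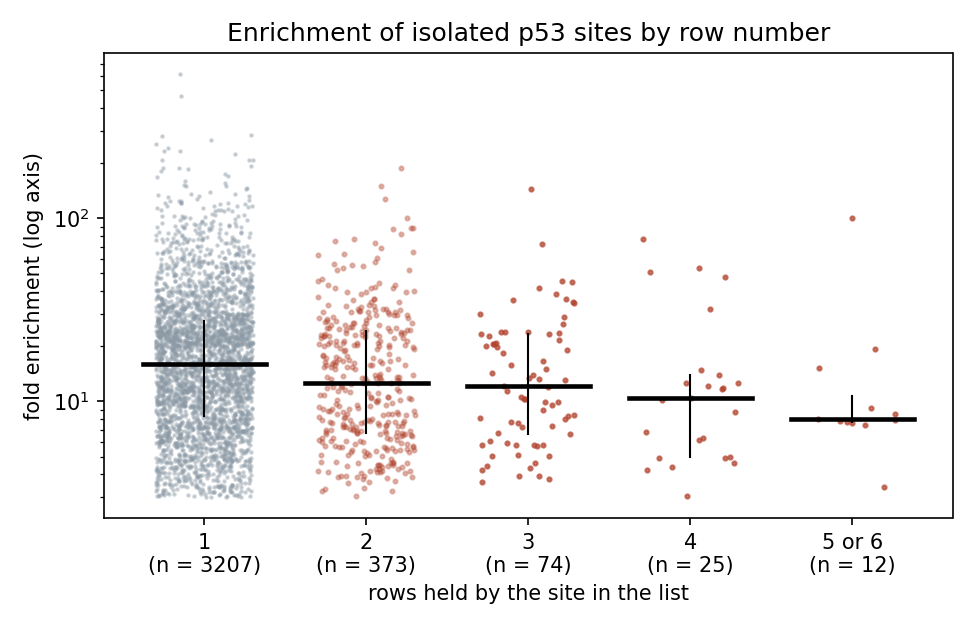
Fold enrichment (vertical log axis) of each isolated site by the number of rows it holds (horizontal axis, with the number of sites). Thick bars are medians and thin vertical lines run between the quartiles. Medians go from 15.9 on 1 row to 7.99 on 5 or 6 rows, with overlapping ranges.

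The strongest sites of the class were few and well spread over the genome. The best-ranked was at position 65088640 of chromosome 1, on 2 rows, with an enrichment of 53.6 and rank 61. Next came position 56849359 of chromosome 17, on 3 rows, with an enrichment of 145 and rank 80. The site at position 155071210 of chromosome 4 had the highest enrichment of the class, 188, at rank 101. No site of the class had a rank better than 61.

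Further down, position 91708430 of chromosome 6 had rank 117 and an enrichment of 52.0, and position 52721940 of chromosome 7 had rank 118, an enrichment of 77.2 and 4 rows. Position 25690317 of chromosome 8 had rank 122 and an enrichment of 63.3. Position 40547661 of chromosome 11 had rank 148 and an enrichment of 151, with its nearest other site 20.8 kb away. These sites show that the order by rank and the order by enrichment part ways near the top, since the site of rank 148 exceeded those of rank 61 and rank 117 in enrichment. The remaining sites of the 10 best ranks were position 25669788 of chromosome 7 (rank 183, enrichment 128), position 22253871 of chromosome 9 (rank 192, enrichment 37.2) and position 113034289 of chromosome 6 (rank 253, enrichment 33.6).

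At the weak end, the lowest enrichment was 3.05, at position 43505760 of chromosome 4, which stood on 4 rows and had rank 4745. Position 61301636 of chromosome 11 followed at 3.06, position 137044189 of chromosome 1 at 3.23, position 147323555 of chromosome 7 at 3.25 and position 65992582 of chromosome 17 at 3.31. These 5 values lie just above 3.00, the lowest enrichment of any site in the list. All 5 had ranks from 4707 to 4764 of 4785.

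The most repeated isolated sites were of middling to weak enrichment, with 1 exception. The 6-row sites were position 34167936 of chromosome 17 at 8.03, position 74982708 of chromosome 11 at 15.2 and position 23673482 of chromosome 13 at 8.499. Among the 5-row sites, position 148041238 of chromosome 7 stood apart with an enrichment of 100.9 and rank 303. The next by rank, position 134168027 of the same chromosome, had an enrichment of 7.74 and rank 2300. The 7 other 5-row sites had enrichments from 3.41 to 19.4 and ranks from 2736 to 4684.

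Isolated sites on several rows were unevenly spread over the chromosomes. On chromosome 11, 64 of 273 isolated sites (23.4%) were repeated, and on chromosome 7, 57 of 247 (23.1%). Chromosome 17 followed with 25 of 145 (17.2%). The other 17 chromosomes lay between 4.35% and 14.6%, with chromosome 18 lowest at 4 of 92 sites and chromosome 13 next at 12 of 149 (8.05%). Chromosomes 7 and 11 together carried 121 of the 484 sites, and 399 of the 3207 isolated sites on 1 row (12.4%). Without these chromosomes, an alternative chosen after seeing the data, 11.4% of isolated sites were repeated.

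**Figure D3:**
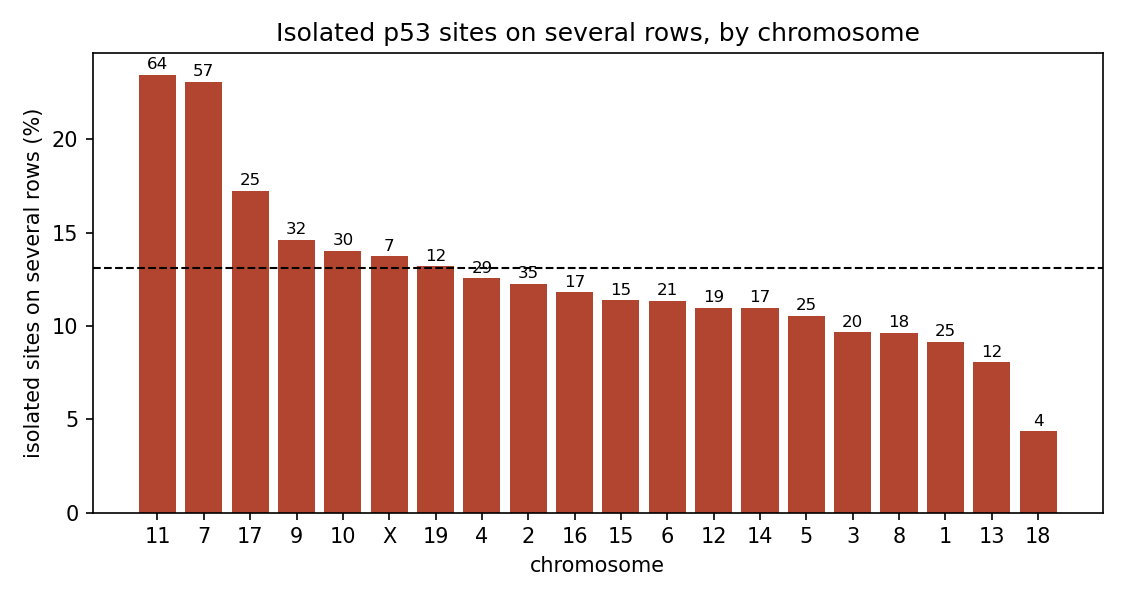
Percentage of isolated sites that stand on several rows (vertical axis) on each chromosome, in falling order. Numbers above the bars are the repeated isolated sites, and the dashed line is the value over all isolated sites, 13.1%. Chromosomes 11 and 7 stand at 23.4% and 23.1%, and chromosome 18 stands at 4.35%.

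Isolated sites on 4 or more rows numbered 37. They were 7 of the 25 sites of the class on chromosome 17 and 7 of the 57 on chromosome 7. On chromosome 11 they were 5 of 64, near the 37 of 484 over the whole class. This depends on the row number: sites on 3 or more rows were 21 of 64 there, against 111 of 484 over the class. They were 16 of 57 on chromosome 7 and 9 of 25 on chromosome 17. Of the 37 sites on 4 or more rows, 19 (51.4%) were thus on these 3 chromosomes. The same 3, the highest in the share of repeated sites, held 146 (30.2%) of all 484 sites. No test was made of this difference. The 3 chromosomes were picked by their share of repeated sites in this same list, so the values only describe it. Across the 20 chromosomes the share of repeated sites had a Spearman correlation of 0.651 with the density of p53 sites. Density ran from 0.368 sites per Mb of covered span on chromosome X to 3.36 on chromosome 11. Chromosome X, though the sparsest, had a share of 13.7%, above the 13.1% over all isolated sites. The correlation is a description over 20 points from 1 list.

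The lower enrichment was present on most chromosomes. The median enrichment of isolated sites on several rows was below that of isolated sites on 1 row on 15 of 20 and above it on 5, namely chromosomes 1, 3, 15, 18 and X. The gap was wide on chromosome 19, at 6.46 against 17.5, on chromosome 14, at 7.81 against 17.5, and on chromosome 16, at 8.41 against 17.2. On chromosome 7 it was 10.6 against 16.4 and on chromosome 11 it was 11.9 against 15.8. The opposite order was clearest on chromosome 15, at 23.7 against 15.3, where the class had 15 sites. Chromosome 18 had only 4 sites in the class and chromosome X only 7.

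Although isolated by the rule, these sites had more p53 sites around them than isolated sites on 1 row. The nearest other site was at a median of 88.4 kb, with quartiles of 37.9 and 197 kb, against a median of 135 kb and quartiles of 52.2 and 323 kb for isolated sites on 1 row. Within 1000 kb on either side they had a median of 7 other sites, against 5. No other site stood within 100 kb of 45.7% of them, against 59.0% of isolated sites on 1 row. Since the rule sets a minimum distance for both classes, these distances are a description above 10 kb. They are taken over the whole genome. Chromosomes 7 and 11 held 25% of the class and 12.4% of isolated sites on 1 row, and chromosome 11 had the most p53 sites per Mb. The distances were not compared within chromosomes, so local surroundings and chromosome are not separated in these values.

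**Figure D4:**
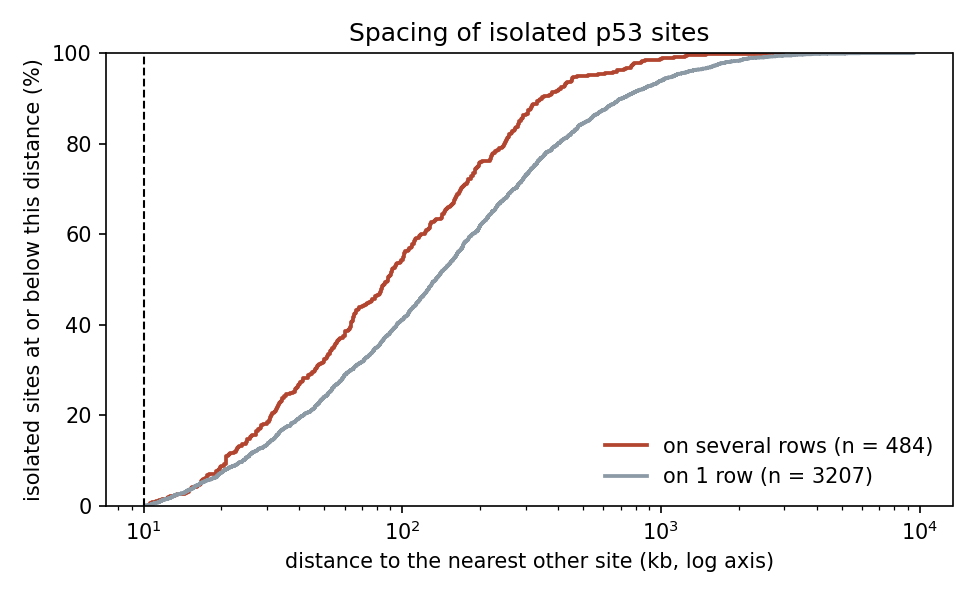
Cumulative percentage of isolated sites (vertical axis) by distance to the nearest other site in kb (horizontal log axis), for sites on several rows and on 1 row, with the 10 kb limit of the rule as a dashed line. The curve of sites on several rows lies to the left, with medians of 88.4 and 135 kb.

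Just inside the limit, position 13272968 of chromosome 10 had its nearest other site 10476 bp away, and positions 17972008 and 17982637 of chromosome 17 were 10629 bp from each other. Just outside it, repeated sites at position 43987940 of chromosome 4, position 9062350 of chromosome 19 and position 92401329 of chromosome 5 had neighbours at 9998, 9863 and 9694 bp. Their enrichments were 25.6, 7.60 and 12.0 inside, and 29.96, 31.0 and 11.4 outside. The most remote site of the class, position 92437370 of chromosome 9, lay 2975 kb from any other and had an enrichment of 7.95. Position 24758305 of chromosome 18 lay 1495 kb away at an enrichment of 6.98, and the 6-row site of chromosome 13 lay 1264 kb away.

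The row number of neighbouring sites was compared next. Each site has a neighbouring site on its left and on its right, except at the ends of a chromosome's list. Of the 964 neighbours of the 484 sites, 298 (30.9%) stood on several rows themselves, against 731 of 6378 neighbours (11.5%) of isolated sites on 1 row. The share fell with distance. It was 48.9% for neighbours at 10 to 30 kb (44 of 90), 40.1% at 30 to 100 kb, 32.5% at 100 to 300 kb and 22.7% at 300 to 1000 kb. Beyond 1000 kb it was 5.62% (5 of 89). For isolated sites on 1 row it was 12.2% at 10 to 30 kb, 14.6% at 30 to 100 kb, 12.0% at 100 to 300 kb, 11.1% at 300 to 1000 kb and 7.89% beyond 1000 kb. The share was higher for repeated sites than for 1-row sites in each of the 4 distance bins up to 1000 kb, and lower beyond, where it rests on 5 repeated neighbours. Without chromosomes 7 and 11 the share over all distances was 29.2% for repeated sites, and it was not computed for 1-row sites.

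**Figure D5:**
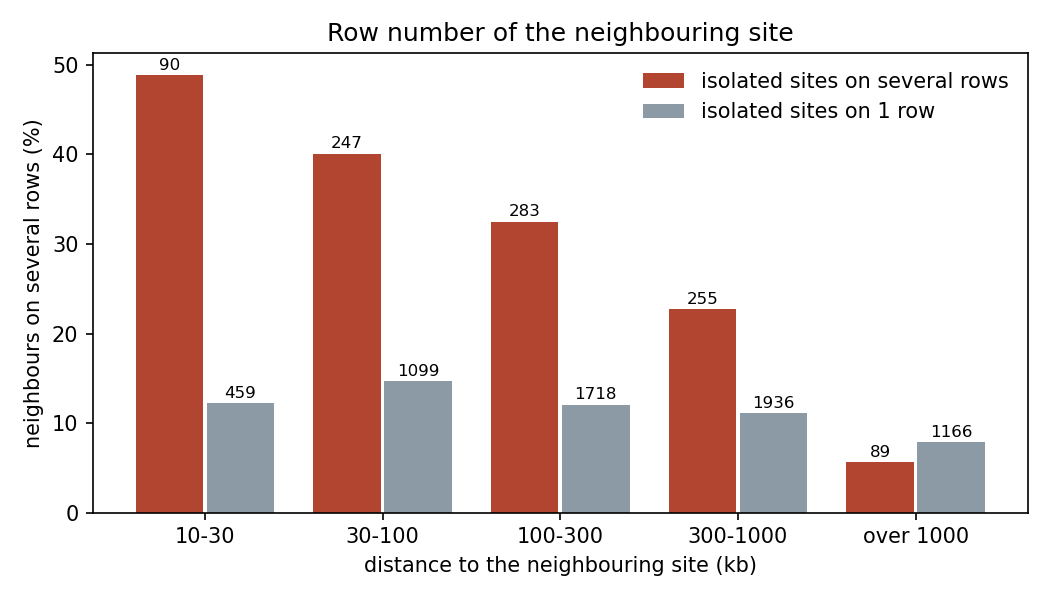
Percentage of neighbouring sites that stand on several rows (vertical axis) by distance to the neighbour in kb, for isolated sites on several rows and on 1 row, with the number of neighbours above each bar. For sites on several rows the share goes from 48.9% at 10 to 30 kb to 5.62% beyond 1000 kb.

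Pairs of sites closer than the rule allows were counted as well. Of the 374 pairs of neighbouring sites within 1 kb, 119 had a repeated site, in all 119 both were repeated, and in 117 both stood on the same number of rows. At 1 to 10 kb, 46 of 70 such pairs had both sites repeated, 38 of them on the same number of rows. At 10 to 30 kb, where isolated sites begin, 27 of 88 pairs had both repeated and 14 of these had the same row number. Agreement in row number was thus highest between the closest sites.

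For 145 of the 484 sites the nearest other site was itself an isolated site on several rows, and 54 pairs were nearest to each other. These pairs lay 10.6 to 453 kb apart, with a median of 54.2 kb, and 33 (61.1%) had the same row number, close to the 62.0% of all possible pairs of the 484 sites that do. The stronger site of a pair exceeded the weaker by a median ratio of 1.97, and by more than 2 in 25 pairs. On chromosome 1, the pair at positions 137026524 and 137044189, both on 2 rows, had enrichments of 28.8 and 3.23 and ranks 272 and 4764. On chromosome 11, the pair at positions 100268524 and 100285234, both on 3 rows, had enrichments of 9.96 and 5.09. On chromosome 10, positions 80791879 and 80812799 stood on 4 and 3 rows with enrichments of 6.801 and 23.5. In the first of these pairs the sites share a row number and differ widely in enrichment.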

How the data were processed

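The p53 site list is 1 table for the whole series, made from the ChIP-seq of doxorubicin-treated cells per the labels. The build is mm9 per the submitters' processing notes. Which program called the sites, at what cutoff, and how the background and p53-/- libraries entered the calling is not given in the sources used here. The enrichment is, per the file headers, a fold ratio whose denominator is unnamed. The deposited score named as a negative log10 of a q value reaches 248643, too large for that scale, so it was used only as a score, like the rank. No reads or counts accompany the sites, so depth is unknown. Lines with the same chromosome and position were joined into 1 site, and distances were taken between distinct positions. Python 3.11.15, pandas 2.3.3, numpy 2.4.6 and scipy 1.17.1 were used, and the rule was tested on simulated data. No test was made, because sites of 1 list are not replicates. Sites named are the 10 of best rank, the 5 with most rows and the 5 of highest and lowest enrichment. The 3 nearest and 3 farthest are named too. Sites beside the limit were planned, but without a set number. The pairs and the 22-row sites were named after their values were seen. The enrichment band from 7 to 10 and the grouping of chromosomes 7, 11 and 17 were likewise chosen with the values in view. The members and the choices were made with earlier results of these data known. The 10 RNA libraries of the series were not used here, since no site could be tied to a gene.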

Additional observations from a re-analysis of the deposited data

How the results depend on the processing

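With distances over 5000, 20000 and 50000 bp the class held 517, 442 and 327 sites, against 484, and positions within 200 bp joined gave 506. Keeping the better part of the list first, by rank or by enrichment at or above the median, left 260 and 263 sites with median enrichments of 23.9 and 26.8, and a minimum of 3 rows left 111. The fewer sites and the higher medians follow from how these alternatives are built. The share of isolated sites on several rows was 11.8% at over 50000 bp and 11.4% without chromosomes 7 and 11, against 13.1%. Leaving out these chromosomes was chosen after seeing the data. For 13.1% the 95% Wilson interval, for counting error only, was 12.1% to 14.2%. It treats sites as independent, although neighbours of repeated sites were more often repeated, so it does not judge the alternatives. The median enrichment of isolated sites on several rows stayed below that of isolated sites on 1 row under all 8 alternatives, by -5.53 to -0.53. None of these alternatives was planned for this difference. The smallest gap, 26.8 against 27.3, was among sites at or above the median enrichment; the cause was not tested. For the isolated sites on several rows, the share of neighbours on several rows ran from 23.6% to 31.5%, against 30.9%. It was lowest in the better part of the list by rank. This share was not computed for isolated sites on 1 row under the alternatives, and none of the alternatives was planned for it. The planned motif search and RNA comparison were not run, because no genome or annotation of the list's build was used here. No paired analysis was possible because the list has no replicates. The site list gives no read depth, so no precision can be given for a single enrichment.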
